A study of Mus musculus with 15 samples.

Results

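The potassium channel family was taken as every gene whose platform symbol starts with Kcn, which gave 84 of the 18193 genes measured, on 167 of 45101 probe sets. A gene with several probe sets, as 46 of the 84 had, was represented by the one with the highest mean over the 15 arrays. The arrays are Affymetrix mouse expression arrays hybridised with RNA from astroglia that had responded to Sonic hedgehog (Shh), sorted from the cerebellum, the hippocampus or the subventricular zone (SVZ) beside the lateral ventricles, with 5 arrays per region. All 3 regions came from male mice of the genotype Gli1-CreER;GFAP-GFP;R26tdTomato, aged 6 to 8 weeks. In these mice a tamoxifen-dependent Cre under Gli1, a target gene of Shh signalling, switches on the red reporter tdTomato for good, while green fluorescent protein is driven by the GFAP promoter, which is active in astroglia and in some neural stem cells. All mice received tamoxifen, so there was no untreated group. One label gives 2 doses of 10 mg with the tissue taken 3 weeks later, while another speaks of treatment over those 3 weeks. A labelled cell had Gli1 activity around the time of tamoxifen and need not have had it at sorting. Each array held the pooled cells of 10 to 12 mice, so the p-values below measure the spread between pools. The design asked which genes differed by more than 4-fold between either forebrain region and the cerebellum, and which of these the SVZ and the hippocampus had in common.

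Potassium channels let potassium leave or enter the cell and so set the resting potential. In astroglia, inward rectifiers and two-pore leak channels dominate the resting conductance and take up the potassium that active neurons release, whereas voltage-gated channels are best known for ending action potentials in neurons. Calcium-activated channels open when calcium rises inside the cell, and auxiliary subunits change the gating or the surface level of the pore subunits they bind.

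The RNA of each pool was amplified, and signals are the authors' normalised values, read here as log2. Array medians lay between 1.12 and 1.31 and the highest values between 14.97 and 15.08. Of the 12 astroglial marker genes checked, all 12 were above the array median in the SVZ and in the cerebellum and 11 in the hippocampus, where Gli1 was the exception. The arrays of a region did not form equally tight groups. The correlation between arrays of one region, over all probe sets including controls, ran from 0.935 to 0.968 in the cerebellum. It ran from 0.765 to 0.889 in the SVZ and from 0.799 to 0.886 in the hippocampus. All 5 SVZ arrays and 4 of the 5 hippocampus arrays correlated on average more with the cerebellum arrays than with the other arrays of their own region. Hippocampus array 2 correlated best with cerebellum array 5, at 0.928. Mean signals of the bacterial spike-in probe sets were between 8.49 and 12.3 in the cerebellum, 11.0 and 13.1 in the SVZ, and 11.5 and 12.9 in the hippocampus.

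Most of the family read near the bottom of the scale. A gene was marked as near the array median, and treated as not measurably expressed, in a region where fewer than 3 of the 5 arrays read more than 1 log2 unit above their own median. By this rule 71 of the 84 Kcn genes were near the median in the SVZ, 69 in the hippocampus and 72 in the cerebellum, and 66 in all 3 regions. That was 78.6% of the family, beside 57.9% of all genes. A further 9 genes were above the median in every region, and the remaining 9 in some regions. The 9 found everywhere were the inward rectifiers Kcnj10 and Kcnj16, the two-pore channel Kcnk1, the calcium-activated channel Kcnn2, the voltage-gated channels Kcna2, Kcnc4 and Kcnh3, the channel-interacting protein Kcnip3 and the noncoding RNA Kcnq1ot1. The further probe sets of Kcnc4, Kcnh3 and Kcnip3 averaged at most 1.8 in any region. Just above the limit lay Kcnn1 in the SVZ, at 1.05 over the median on the middle one of its 5 arrays, and Kcnk1 in the cerebellum, at 1.25. Kcnt1 in the SVZ and Kcnn1 in the hippocampus lay just below, both at 0.95. The count near the median in all regions was 58 with a margin of 0.5 and 72 with a margin of 2. It was 71 with the mean of probe sets and 49 when all 5 arrays of a region had to be near. Of the 66 genes, 17 read over the margin on some array.

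**Figure D1:**
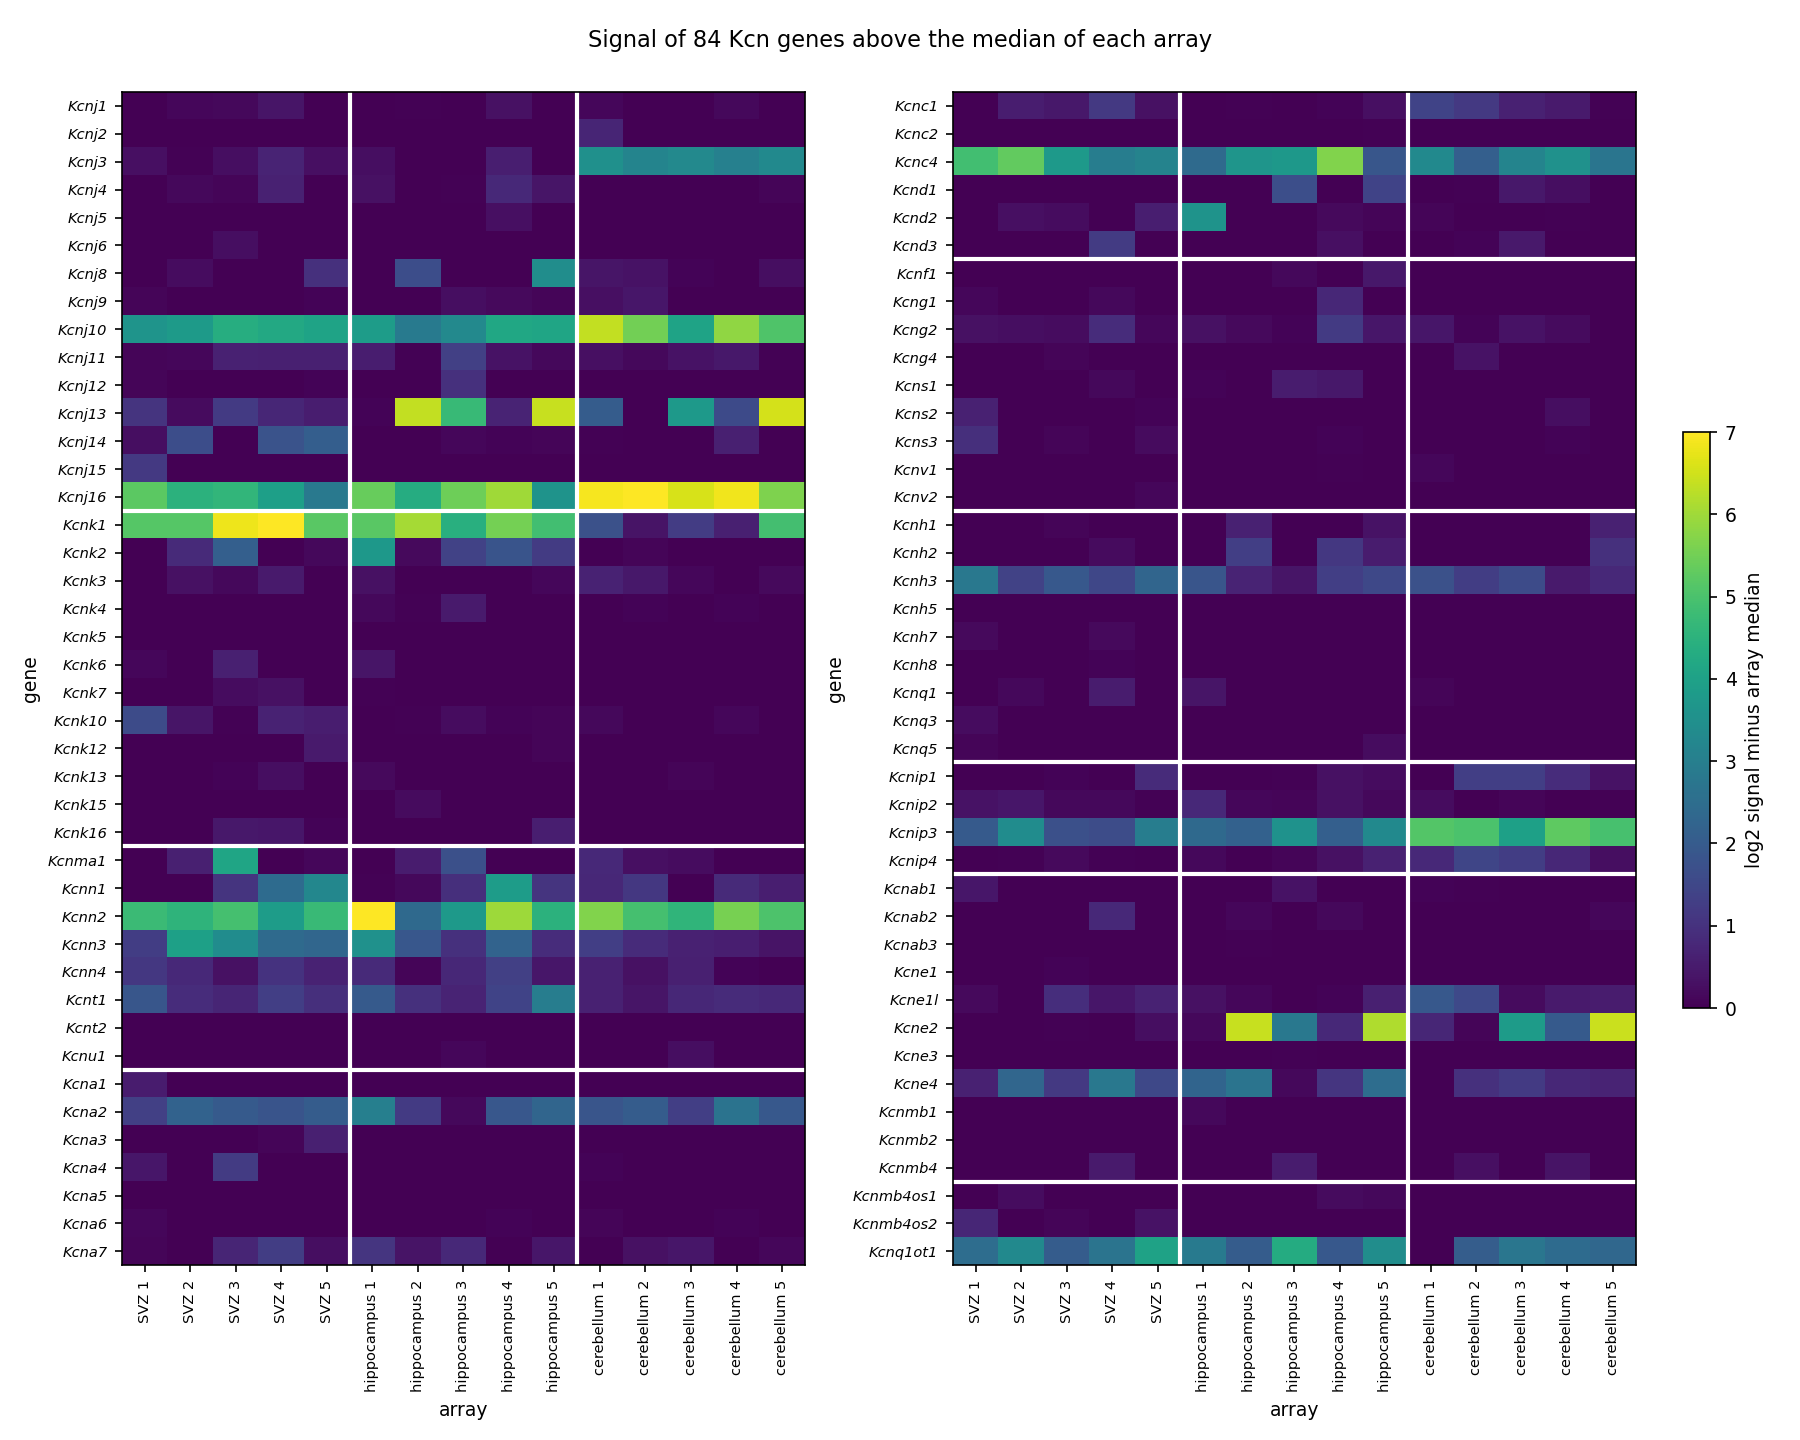
Signal of the 84 Kcn genes (rows, grouped by class, with white lines between classes) on the 15 arrays (columns), as log2 signal minus the median of the array. Colours run from 0, where lower values are also drawn, to 7, where higher values are also drawn, and 66 of the 84 rows stay near the median in all 3 regions.

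Few Kcn genes differed between regions, in a share close to that of all genes. Region means were compared with limma over all 15 arrays with Benjamini-Hochberg adjustment across the 18193 genes. In the SVZ against the cerebellum, 2 of the 84 were higher at an adjusted p under 0.05, or 2.38%, where 1.03% of all genes were higher. There 4 were lower, or 4.76%, where 4.47% of all genes were. In the hippocampus against the cerebellum, 1 was higher, or 1.19%, beside 0.808% of all genes, and 3 were lower, or 3.57%, beside 3.97%. The 2 comparisons share the cerebellum arrays, so their values are given side by side and not as support for each other. No Kcn gene passed between the SVZ and the hippocampus, where 0.022% of all genes did by limma. At an unadjusted p under 0.05, 5 Kcn genes differed there, or 5.95%, beside 7.02% of all genes. By the rule of the series design, over 4-fold at an unadjusted p under 0.01, 2 Kcn genes were higher in the SVZ than in the cerebellum, beside 0.66% of all genes, and 3 were lower, beside 2.55%. By that rule 1 was higher in the hippocampus, beside 0.423% of all genes, and 2 were lower, beside 2.45%. The median difference over the 84 genes was 0.20 log2 units for the SVZ and 0.19 for the hippocampus against the cerebellum, beside 0.07 for all genes in both, and most of the 84 were near the median on both sides. Without hippocampus arrays 2 and 5 and cerebellum array 5, the arrays with the highest choroid plexus signal, 5 genes passed in the SVZ and 3 in the hippocampus. Without SVZ array 2 and hippocampus array 2, the numbers were 5 and 4. With the mean spike-in signal of each array as a covariate, Kcnj3 was the 1 Kcn gene that passed in either comparison, and over all genes 40 were higher and 144 lower in the SVZ in place of 188 and 814. Kcnk1 then differed by 5.01 in the SVZ, with an adjusted p of 0.053 by limma, and by 4.13 in the hippocampus, with 0.117.

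Kcnj3, which encodes a pore subunit of the channels that G proteins open after receptors such as the muscarinic and GABA-B receptors are engaged, was the inward rectifier with the smallest adjusted p in both comparisons. Its signal on the 5 cerebellum arrays was 4.64, 4.30, 4.47, 4.17 and 4.45. The SVZ arrays read 1.60, 1.29, 1.45, 1.93 and 1.52, and the hippocampus arrays 1.52, 0.78, 0.87, 1.87 and 1.18. The cerebellum arrays did not overlap with the others, and Kcnj3 was the only member above the array median in the cerebellum alone. The mean was 7.2-fold lower in the SVZ than in the cerebellum, with an adjusted p of 1.7e-06 by limma, and -3.16 ± 0.21 (SE) log2 units, or 8.95-fold lower, in the hippocampus, with an adjusted p of 4.93e-07 by limma. Since the low groups were near the median, these folds may understate the change. Of its 3 further probe sets, 2 were also lower at an adjusted p under 0.05 in both comparisons, and the remaining one read near the median on all arrays. The mean of its probe sets differed by -1.74 in the SVZ and -1.81 in the hippocampus, and passed in both. Fewer cells that express a gene and less RNA per cell cannot be told apart in these pools, here and below.

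Some genes of cerebellar neurons were also higher in the cerebellum. In the list of cerebellar neuron genes, 4 of 11 measured were lower in the SVZ than in the cerebellum and 3 of 11 in the hippocampus. Of all genes, 4.47% and 3.97% were. Near the array median in all 3 regions were 6 of the 11. The median difference of the 11 was -0.27 in the SVZ and -0.45 in the hippocampus, beside 0.07 for all genes. The mean level of the list was 2.25 to 3.07 on the cerebellum arrays, 1.06 to 1.72 in the SVZ and 1.23 to 1.84 in the hippocampus. Pvalb, a calcium buffer of Purkinje cells and interneurons, averaged 5.78 in the cerebellum and 1.67 in the SVZ. The granule cell genes Gabra6 and Neurod1 were near the array median in all 3 regions. The part of these cells in the Kcnj3 difference was not tested.

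Kcnj10 and Kcnj16, subunits that combine into inward rectifiers of astroglia, were well above the array median on all 15 arrays, and their means were highest in the cerebellum. Kcnj10 read 7.50, 6.63, 5.22, 6.97 and 6.19 in the cerebellum, 5.12, 4.07, 4.57, 5.45 and 5.35 in the hippocampus and 4.93, 5.06, 5.57, 5.45 and 5.29 in the SVZ. Cerebellum array 3 lay among the arrays of the other regions. Kcnj10 was lower by 1.59 ± 0.37 (SE) in the hippocampus than in the cerebellum, a difference of -1.59 log2 units or 3.01-fold, with an adjusted p of 0.0256 by limma. In the SVZ the difference was -1.24 ± 0.37 with an adjusted p of 0.0713 by limma, which did not pass. The hippocampus call did not hold without cerebellum array 1, 2 or 4, or hippocampus array 3, where the adjusted p by limma was between 0.0568 and 0.0718. Without the 3 arrays with the highest choroid plexus signal the difference was -1.53, with an adjusted p of 0.0927 by limma. Without cerebellum array 3, the SVZ difference was -1.56 and passed, with an adjusted p of 0.0138 by limma.

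Kcnj16 read 8.03, 8.34, 7.75, 7.99 and 6.77 in the cerebellum, above all 5 SVZ arrays, at 6.55, 5.73, 5.81, 5.16 and 4.05. The hippocampus arrays, at 6.63, 5.53, 6.72, 7.27 and 4.84, lay between and overlapped with both. The SVZ difference of -2.32 ± 0.51 log2 units, or 4.98-fold, had an adjusted p of 0.016 by limma. The hippocampus difference of -1.58 ± 0.51 had an adjusted p of 0.0981 by limma. A second Kcnj16 probe set differed in the same direction in the SVZ without passing. Among astroglial genes, Slc1a3, a glutamate transporter, was also lower, by -1.83 in the SVZ and -2.16 in the hippocampus, and S100b, a calcium-binding protein, by -3.41 and -3.67. By contrast, Glul, which makes glutamine, was higher in the SVZ by 0.92. In all, 2 of 12 astroglial marker genes were lower and 1 higher in the SVZ, and 3 were lower in the hippocampus. Of all genes, 4.47% were lower and 1.03% higher in the SVZ, and 3.97% were lower in the hippocampus.

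Kcnj13 and Kcne2 split the arrays within the regions. Kcnj13 encodes an inward rectifier, and Kcne2 an auxiliary subunit, that are both found at the apical membrane of the choroid plexus, the epithelium that makes cerebrospinal fluid. Kcnj13 read 1.33, 7.55, 5.99, 1.96 and 7.66 in the hippocampus, 3.16, 0.66, 4.96, 2.71 and 7.68 in the cerebellum and 1.44 to 2.39 in the SVZ. Kcne2 read 1.40, 7.61, 4.07, 2.08 and 7.41 in the hippocampus, 1.89, 1.22, 5.02, 3.11 and 7.56 in the cerebellum and 0.62 to 1.49 in the SVZ. Hippocampus arrays 2 and 5 and cerebellum array 5 were the highest for both genes, and hippocampus array 3 and cerebellum array 3 followed. Neither gene passed in any comparison, with adjusted p by limma of at least 0.254 for Kcne2 and 0.46 for Kcnj13.

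The choroid plexus genes Kl and Folr1 were high on the same 3 arrays. Kl, the coreceptor klotho, read 7.79, 6.75 and 6.65 on hippocampus arrays 2 and 5 and cerebellum array 5, and Folr1, a folate receptor, read 7.26, 7.04 and 6.71. On hippocampus array 3, where Kcnj13 read 5.99, Kl was at 1.51. The mean level of the 9 ependymal and choroid plexus genes was 5.88, 5.14 and 5.75 on those 3 arrays and between 2.01 and 4.17 on the other 12. The ependymal gene Tmem212 was near the array median in all 3 regions. The part of such cells in other results was not tested, and values without these 3 arrays are given where a call changed. Without them Kcnj13 differed by 0.22 between hippocampus and cerebellum, with an adjusted p of 0.933 by limma.

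**Figure D2:**
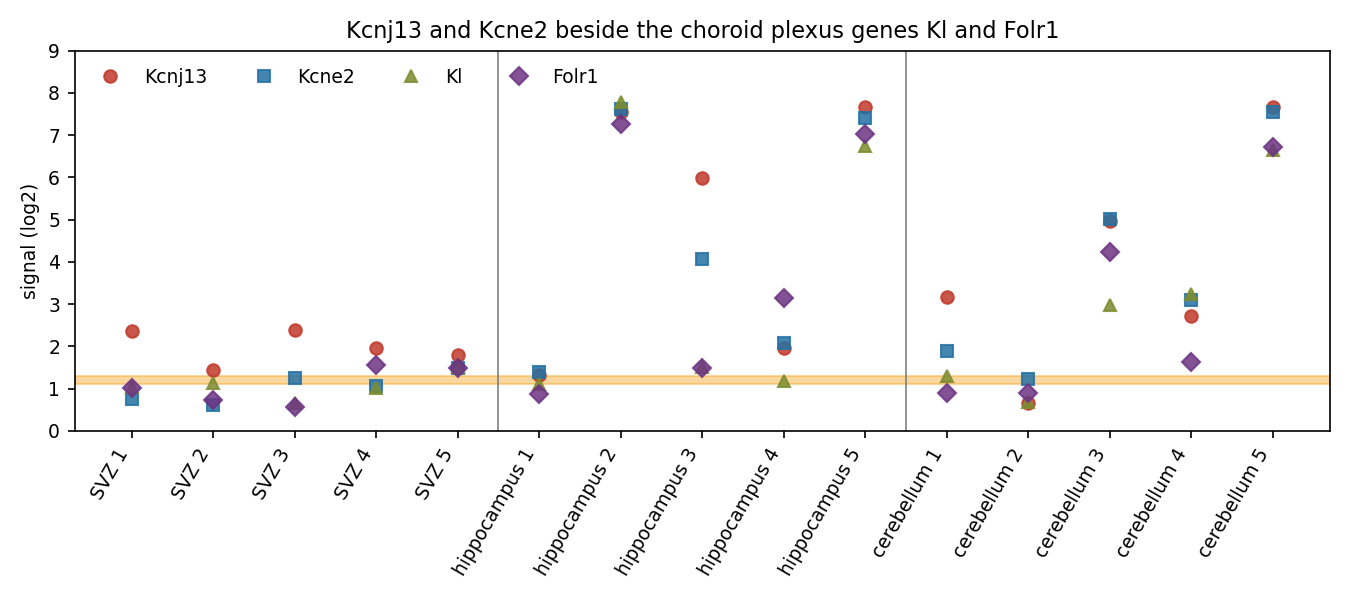
Log2 signal of Kcnj13, Kcne2 and the choroid plexus genes Kl and Folr1 on each of the 15 arrays, with the range of the array medians as an orange band and lines between the regions. Kcnj13 and Kcne2 read above 7 on hippocampus arrays 2 and 5 and cerebellum array 5, where Kl and Folr1 were also high.

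Of the other inward rectifiers, Kcnj14 was above the array median in the SVZ alone, where the arrays read 1.56, 2.89, 1.21, 3.01 and 3.33. The hippocampus arrays read 1.11 to 1.38 and the cerebellum arrays 1.03 to 1.75, so SVZ arrays 1 and 3 overlapped with them. The SVZ exceeded the cerebellum by 1.17 ± 0.35, with an adjusted p of 0.0684 by limma, and it exceeded the hippocampus by 1.13 ± 0.35, with an adjusted p of 0.488. The remaining 10 of the 15 Kcnj genes were near the median in all 3 regions. Among these was Kcnj2, a strong rectifier of neurons and muscle, which read 0.59 to 1.86. Kcnj8, the pore of an ATP-sensitive channel of pericytes, reached 4.66 on hippocampus array 5 and averaged 1.51 over all arrays.

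Kcnk1, a two-pore leak channel of astroglia, ran opposite to these inward rectifiers and had the largest mean difference from the cerebellum in the family, in both comparisons. The SVZ arrays read 6.46, 6.40, 8.01, 9.28 and 6.44, the hippocampus arrays 6.47, 7.25, 5.68, 6.80 and 6.11, and the cerebellum arrays 2.86, 1.51, 2.42, 1.74 and 6.04. Every SVZ array was above every cerebellum array, whereas cerebellum array 5 lay within the hippocampus range. The SVZ was higher by 4.40 ± 0.79 log2 units, or 21.2-fold, with an adjusted p of 0.00451 by limma. The hippocampus was higher by 3.55 ± 0.79, or 11.7-fold, with an adjusted p of 0.0184. Cerebellum array 5 was one of the arrays with high Kl and Folr1, and without it the differences were 5.19 and 4.33, with adjusted p by limma of 0.000219 and 0.000809. Without cerebellum array 2 or 4 the hippocampus call did not hold, with adjusted p by limma of 0.056 and 0.0559. The other Kcnk1 probe set was higher in both comparisons and passed in the SVZ alone.

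Microglial genes were also higher in the SVZ, in 5 of 13, and in the hippocampus, in 2 of 13, than in the cerebellum. Of all genes, 1.03% and 0.808% were. The median difference of the 13 was 3.36 in the SVZ and 1.56 in the hippocampus, beside 0.07 for all genes. Of the 13, 4 were near the array median in all 3 regions. The mean level of that list was 3.16 to 6.20 in the SVZ, 2.89 to 5.22 in the hippocampus and 1.38 to 2.88 in the cerebellum. Csf1r, the receptor that microglia need to survive, averaged 8.88 in the SVZ and 3.54 in the cerebellum, while Tmem119 and Trem2 were near the median in all regions. The part of these cells in the Kcnk1 difference was not tested.

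Kcnk2, a leak channel opened by stretch and lipids, was above the median in the hippocampus alone. It read 4.98, 1.37, 2.65, 3.10 and 2.45 there, 0.57 to 1.22 in the cerebellum and 1.22 to 3.32 in the SVZ. All hippocampus arrays were above all cerebellum arrays, but the difference of 1.95 ± 0.55 had an adjusted p of 0.0627 by limma. Without hippocampus array 2, the lowest of that region, it was 2.33 with an adjusted p of 0.0182 by limma. Kcnk2 passed in no other fit that left out 1 array. Without the 3 arrays with high Kl and Folr1, a setting chosen after seeing the data, the difference was 2.51, with an adjusted p of 0.0422 by limma. Kcnk10, a close relative of Kcnk2, read 2.92 on SVZ array 1 and at most 1.90 elsewhere, and did not pass in any comparison. Its SVZ difference from the cerebellum was 0.82 ± 0.25, with an adjusted p of 0.0693 by limma. The mean of its probe sets differed by 0.675 there and passed, with an adjusted p of 0.0248 by limma. The other 9 of the 12 two-pore channel genes were near the median in all 3 regions.

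Kcnn3 and Kcnn2, both small-conductance channels opened by calcium, behaved differently. Kcnn3 read 2.58, 5.21, 4.61, 3.65 and 3.54 in the SVZ and 2.42, 1.98, 1.80, 1.71 and 1.50 in the cerebellum, with 2.14 to 4.80 in the hippocampus. The SVZ and cerebellum arrays did not overlap, and the difference of 2.04 ± 0.52, or 4.1-fold, had an adjusted p of 0.0364 by limma. The cerebellum was near the array median, so this fold, like those of Kcnj3, may understate the change. This call was held by only 2 of the 10 fits that left out 1 array, where the difference ran from 1.71 to 2.37 and the adjusted p reached 0.0944. It did not hold without SVZ array 2, 3, 4 or 5 or without cerebellum array 2, 3, 4 or 5, nor without the 3 arrays with high Kl and Folr1, at 1.94 with an adjusted p of 0.101 by limma. The hippocampus difference of 1.28 ± 0.52 had an adjusted p of 0.193 by limma. Kcnn2 was above the median on every array, between 5.09 and 6.13 in the SVZ, 3.58 and 8.57 in the hippocampus and 5.76 and 6.81 in the cerebellum. Its differences from the cerebellum, -0.49 ± 0.69 and -0.27 ± 0.69, were smaller than their errors.

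Kcnn1, another small-conductance channel, was high on single arrays, at 3.66 and 4.46 on SVZ arrays 4 and 5 and at 5.13 on hippocampus array 4, and read 1.06 to 2.28 on the other 12. Kcnma1, the pore of the large-conductance calcium-activated channel, read 5.31 on SVZ array 3 and 0.51 to 2.99 elsewhere. Kcnt1, a sodium-activated channel, read 1.96 to 4.22 in the hippocampus and 1.52 to 1.98 in the cerebellum, a difference of 1.02 ± 0.37 with an adjusted p of 0.136 by limma. None of these 3 genes passed.

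Among the 13 voltage-gated pore subunits of the Kcna to Kcnd groups, none passed in any comparison by limma with 1 probe set per gene. Of these, 11 were near the median in all 3 regions. At an unadjusted p under 0.05, 1 of the 13 differed between hippocampus and cerebellum, and none in the other comparisons. Between SVZ and hippocampus 7.02% of all genes did. That share was not counted for the comparisons with the cerebellum, so the 1 gene cannot be set against it. Kcnc4, a fast-inactivating channel, read 4.18 to 6.56 in the SVZ, 3.12 to 6.94 in the hippocampus and 3.26 to 4.66 in the cerebellum. The SVZ difference from the cerebellum was 1.15 ± 0.65, with an adjusted p of 0.328 by limma. The SD was 1.07 in the SVZ and 0.56 in the cerebellum. Kcna2, an axonal channel of neurons, read 2.64 to 3.45 in the SVZ, 1.42 to 4.28 in the hippocampus and 2.48 to 3.80 in the cerebellum. Its partner Kcna1 was near the median, as was Kcnc1, a channel of fast-firing neurons. Kcnd2, the pore of the transient A-type current, read 4.85 on hippocampus array 1 and 0.56 to 1.81 elsewhere. Another Kcnd2 probe set read 0.85 to 1.97 in the hippocampus and 0.26 to 0.73 in the cerebellum. It differed by 0.83 with an adjusted p of 0.0237 by limma, though near the array median in both. The mean of the Kcnd2 probe sets differed by 0.91 there, with an adjusted p of 0.00673 by limma. The 9 modulatory subunits of the Kcnf, Kcng, Kcns and Kcnv groups, which form no channel alone, were all near the median in all regions. Kcns3, one of these, read 2.24 on SVZ array 1 and 0.83 to 1.43 elsewhere. Of the 9 Kcnq and Kcnh genes, 8 were near the median. The exception, Kcnh3, read 2.61 to 4.10 in the SVZ, 1.68 to 3.11 in the hippocampus and 1.64 to 2.86 in the cerebellum, and the SVZ difference of 0.89 ± 0.35 had an adjusted p of 0.165 by limma.

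Kcnip3, a calcium-binding protein that joins Kcnd channels and also acts in the nucleus as a repressor of transcription, was lower in both forebrain regions. The cerebellum arrays read 6.25, 6.15, 5.16, 6.38 and 6.07, the SVZ arrays 3.30, 4.65, 2.91, 2.84 and 4.19, and the hippocampus arrays 3.65, 3.37, 4.84, 3.40 and 4.57. No array of either forebrain region reached the lowest cerebellum array. The SVZ difference was -2.42 ± 0.40, or 5.37-fold, with an adjusted p of 0.00277 by limma. The hippocampus difference was -2.04 ± 0.40, or 4.1-fold, with an adjusted p of 0.00936 by limma, and of 0.0577 without the 3 arrays with high Kl and Folr1. The other Kcnip3 probe set did not pass, at -0.57 ± 0.39 in the SVZ and -0.01 ± 0.39 in the hippocampus. The mean of both probe sets differed by -1.50 and -1.02 and passed, with adjusted p by limma of 0.00309 and 0.0332. As for Kcnj3, 4 and 3 of the 11 cerebellar neuron genes were lower in the same comparisons, and the part of those cells was not tested. The 3 Kcnd genes measured, whose channels Kcnip proteins join, were near the array median in all 3 regions.

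Kcnip4 passed in the SVZ with a difference of -0.80 ± 0.21 and an adjusted p of 0.0411 by limma, but it was near the array median in all 3 regions. It read 1.15 to 1.39 in the SVZ and 1.93, 2.58, 2.43, 1.90 and 1.38 in the cerebellum. Its 2 further probe sets did not differ in that direction, and the mean of its probe sets differed by -0.20 with an adjusted p of 0.36 by limma. Of the 10 fits that left out 1 array, 1 kept the call, with differences from -0.96 to -0.66.

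**Figure D3:**
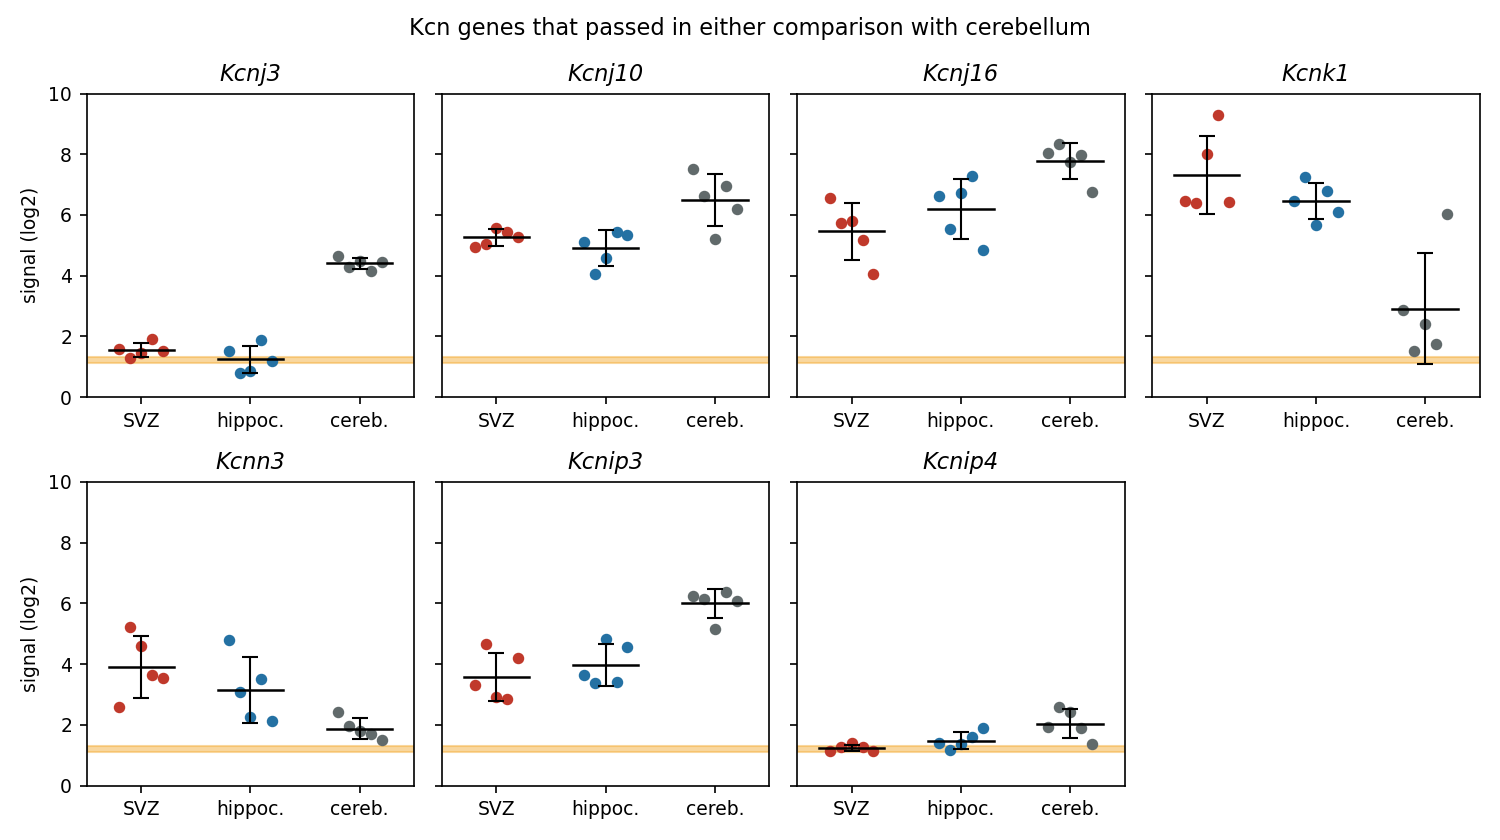
Log2 signal of the 7 Kcn genes that passed in either comparison with the cerebellum, with a point for each of the 5 arrays per region, a line at the mean and bars of 1 SD. The orange band is the range of the array medians, and the Kcnj3 and Kcnip3 points of the cerebellum lie above all others of the same gene.

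Of the 11 other auxiliary subunits, 9 were near the median in all regions, among them the Kcnab and Kcnmb genes. Besides Kcne2, Kcne4, a subunit that joins voltage-gated channels, was above the median in the SVZ at 1.96 to 4.01 and in the hippocampus at 1.41 to 3.88. It read 1.05 to 2.36 in the cerebellum, and the differences of 1.08 ± 0.50 and 1.13 ± 0.50 did not pass. Kcnq1ot1, a long noncoding RNA that silences its imprinted neighbours on the paternal chromosome, read 3.24 to 5.25 in the SVZ and 3.19 to 5.59 in the hippocampus. In the cerebellum it read 1.06 on array 1 and 3.19 to 3.91 on the others. Another Kcnq1ot1 probe set read 5.07 on cerebellum array 1 and 2.95 to 3.39 on the others. That probe set differed from the cerebellum by -0.04 in the SVZ and 0.20 in the hippocampus. The rest of its probe sets averaged at most 1.77 in any region. The antisense RNA Kcnmb4os2 read 0.49 to 2.07 and was near the median.

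**Figure D4:**
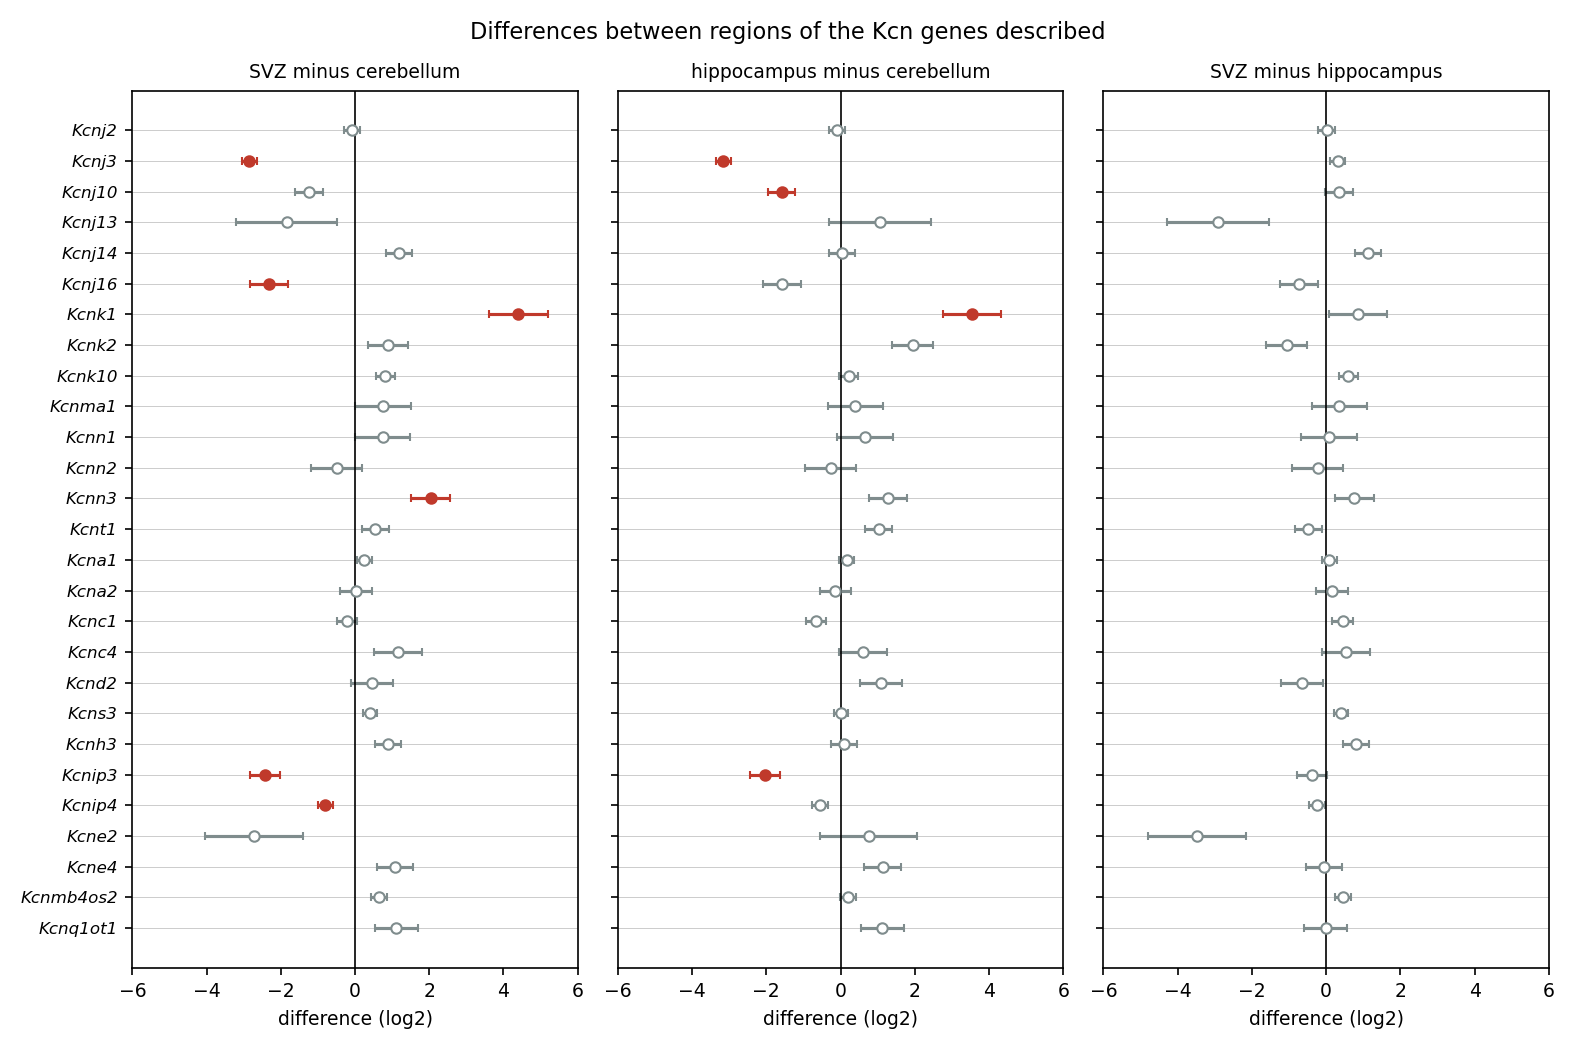
Difference in mean log2 signal between regions (points, with bars of 1 SE) for the 27 Kcn genes described, with filled red points where the adjusted p was under 0.05. Kcnj3 and Kcnip3 lie below 0 and Kcnk1 above 0 in both comparisons with the cerebellum, and no point is filled between SVZ and hippocampus.

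Pumps, cotransporters and channel partners were checked in the same fits. Of all genes, 1.03% were higher and 4.47% lower in the SVZ than in the cerebellum, and 0.808% and 3.97% in the hippocampus. Of the 14 measured genes for pumps and cotransporters that carry potassium, none was higher and 1 lower in the SVZ than in the cerebellum, and 1 was higher and 1 lower in the hippocampus. The lower gene was Fxyd7, a regulator of the sodium pump, at -0.98 and -0.87, and the higher was Fxyd6, another such regulator, at 1.17. Both were near the array median in all 3 regions. The pump subunit Atp1b2 averaged 9.43 in the SVZ, 9.10 in the hippocampus and 10.00 in the cerebellum, and did not pass. Of 16 measured partners without a Kcn symbol, 1 passed, Dpp10, which joins Kcnd channels, at 0.51 in the hippocampus, and it was near the median as well. Aqp4, the water channel that sits with Kcnj10 at astroglial endfeet, differed by -1.26 in the SVZ and -1.54 in the hippocampus, with adjusted p by limma of 0.11 and 0.0615. No gene of either list passed by limma between the SVZ and the hippocampus. At an unadjusted p under 0.05, 1 pump or cotransporter gene and 3 partner genes did, beside 7.02% of all genes.

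The RefSeq table for GRCm38.p6 held promoters for 64 of the 84 genes, and 4 of the 7 genes that passed had a single start in it. The 250 bases before the start are shown for the 3 of these that passed in the hippocampus comparison, since 2 were lower and 1 higher there. Letters in capitals mark a GC box.
Kcnj3, chr2:55435720-55435969, + strand: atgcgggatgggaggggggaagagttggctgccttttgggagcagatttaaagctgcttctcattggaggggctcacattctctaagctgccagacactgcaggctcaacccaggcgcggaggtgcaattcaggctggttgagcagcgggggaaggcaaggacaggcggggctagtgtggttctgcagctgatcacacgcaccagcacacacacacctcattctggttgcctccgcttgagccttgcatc
Kcnj10, chr1:172340960-172341209, + strand: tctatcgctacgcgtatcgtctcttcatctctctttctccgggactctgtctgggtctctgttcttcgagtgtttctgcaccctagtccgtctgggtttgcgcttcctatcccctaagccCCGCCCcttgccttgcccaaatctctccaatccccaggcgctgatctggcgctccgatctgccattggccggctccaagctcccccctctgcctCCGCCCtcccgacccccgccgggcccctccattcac
Kcnk1, chr8:125994852-125995101, + strand: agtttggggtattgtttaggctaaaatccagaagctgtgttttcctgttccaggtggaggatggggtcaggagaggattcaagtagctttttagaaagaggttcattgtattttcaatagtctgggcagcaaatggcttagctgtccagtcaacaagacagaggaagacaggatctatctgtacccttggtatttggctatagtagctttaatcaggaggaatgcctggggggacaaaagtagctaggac
Searched on both strands, the GC box GGGCGG was found at 2 places before Kcnj10 and at none before Kcnj3, Kcnk1 or Kcnn3. The core of the site that Gli proteins bind, CCACCCA, and the TATA box TATAAA were found before none of these 4 genes. In the same window of all 32851 promoters, 32.7% held the GC box, 8.11% the Gli core and 12.4% the TATA box. The GC content was 58.4% before Kcnj3, 62.0% before Kcnj10 and 44.4% before Kcnk1, where the median of all promoters was 52.4%.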

How the data were processed

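Gli1+ GFAP+ cells from 3 brain regions were profiled on 15 Affymetrix arrays, 5 per region, each from a pool of mice. Per the labels, WT-Ovation Pico amplification of the RNA preceded biotinylation. The deposited values were made with RMA, per the submitters' processing notes. The base of the authors' logarithm is nowhere stated in these sources, so the deposited values were read as log2 from their range. There are no detection calls, and 1 value was below 0.

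The 64 control probe sets were left out, as were 9211 probe sets not listed in the platform annotation and 932 with several symbols. The highest probe set by mean over all arrays stood for a gene. Region means were compared with limma 3.58.1 in R 4.3.3 (lmFit, eBayes) without a filter on dim genes, and Benjamini-Hochberg adjustment ran over all 18193 genes. Further probe sets of a gene were tested in a separate fit of the same kind. Its adjustment ran over the 34945 probe sets with 1 symbol. The fit was checked on simulated data. Figures were drawn with matplotlib 3.10.9. Named genes were those that passed, the 5 with the highest mean in each region, the smallest p in each class where none passed, and 13 well-known channels. The other Kcn genes above the array median, Kcnj8, and the marker and pathway genes that did not pass were singled out after their values were seen. Members and lists were chosen with earlier results of these data known. No array pair held identical values. The number of arrays limits precision.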

Additional observations from a re-analysis of the deposited data

Results flagged for a closer look

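In 9 of 81 groups of 5 arrays, 27 Kcn genes in 3 regions, the highest or lowest array stood apart by Dixon's criterion, with a gap to its neighbour above 0.71 of the group's range. That is 11.1%, where the criterion flags about 1 in 20 independent groups of normally distributed values. The 27 genes were partly chosen by their values and the groups share arrays, so the 2 rates cannot be set against each other. High readings were 5.31 for Kcnma1 on SVZ array 3, 4.85 for Kcnd2 on hippocampus array 1 and 5.13 for Kcnn1 on hippocampus array 4, beside next values of 1.85, 1.45 and 2.28. Low readings were 5.16 for Kcnip3 on cerebellum array 3 and 1.06 for Kcnq1ot1 on cerebellum array 1, beside next values of 6.07 and 3.19. On cerebellum array 1 another Kcnq1ot1 probe set read 5.07, the highest of that region. The remaining 4 were the highest of their group but within 1 log2 unit of the array median: 1.85 for Kcna1 and 2.24 for Kcns3 on SVZ array 1, 1.75 for Kcnj14 on cerebellum array 4 and 1.86 for Kcnj2 on cerebellum array 1. No Kcn gene passed the test of the difference between SVZ and hippocampus.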

How the results depend on the processing

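The 6 calls in the SVZ comparison became 1 with the spike-in covariate and 3 at an adjusted p under 0.01, and 4 to 6 without 1 array. The 4 calls in the hippocampus comparison became 2 with quantile normalization, 7 with array weights, 2 without cerebellum arrays 4 and 5, 1 with the spike-in covariate and 2 at an adjusted p under 0.01, and 2 to 5 without 1 array. There were 0 between SVZ and hippocampus in each setting run. Kcnj3 passed in all 25 settings of both comparisons, with adjusted p by limma of at most 6.76e-05 and 0.000132. Kcnip3 passed in 24 and 21 of 25, Kcnk1 in 24 and 22, Kcnj16 in 23 (SVZ), Kcnj10 in 13 (hippocampus), Kcnn3 in 12 and Kcnip4 in 5 of 24. No difference of a gene that passed changed sign. Of 1743 values for genes and comparisons that did not pass, 24 passed under another setting, Kcnk2 and Kcnj14 among them. With the replicate block, 4 genes passed in the SVZ, without Kcnip4 and Kcnn3 (adjusted p by limma of 0.086 and 0.0653), 5 in the hippocampus, with Kcnj16 at 0.0249, and 0 between SVZ and hippocampus. The deviations of arrays with the same number correlated between -0.105 and 0.189. The best match carried the same number in 4 of 5 cases when SVZ and cerebellum arrays were paired. In each of the other pairings this held in 2 of 5. The correlations were low but the matches were uneven, so whether such arrays had more in common than their number cannot be decided. Median centring moved the median difference of all genes from 0.07 to -0.04 in both comparisons with the cerebellum. Quantile normalization gave 213 genes higher and 394 lower in the SVZ, beside 188 and 814, and 155 and 332 in the hippocampus, beside 147 and 722. A filter on dim probe sets left 16 of the 84 genes, and 5 and 4 of them passed. The settings without SVZ array 2 and hippocampus array 2, and without hippocampus arrays 2 and 5 and cerebellum array 5, were chosen after seeing the data. Signals near the array median, with no detection calls, limit what can be said of the 66 genes there.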

Other observations

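Marker genes of other cells were read in the same fits, against the cerebellum. Of all genes, 1.03% were higher and 4.47% lower in the SVZ at an adjusted p under 0.05. In the hippocampus 0.808% were higher and 3.97% lower. The share of all genes at an unadjusted p under 0.05 was not counted for these comparisons. Of 8 oligodendrocyte precursor genes, 2 were higher in the SVZ, and 1 was higher and 1 lower in the hippocampus. Of 14 genes of neurons in general, 2 were lower in the SVZ and 1 in the hippocampus. Of 9 genes of neuroblasts and dividing cells, 1 was higher in each region, and of 12 endothelial and pericyte genes, 1 was higher in the SVZ and 0 passed by limma in the hippocampus, where 1 did at an unadjusted p under 0.05. Of 10 oligodendrocyte genes, 1 was lower in each region, and none of 10 genes of hippocampal and striatal neurons passed by limma, with 2 in the SVZ and 3 in the hippocampus at an unadjusted p under 0.05. None of the 9 ependymal and choroid plexus genes passed by limma, with 2 in the SVZ and 1 in the hippocampus at an unadjusted p under 0.05.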
